A study of Mus musculus with 40 samples.

Results

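The immediate early genes described here are Fos, Fosb, Junb, Egr1, Egr2, Egr3, Egr4, Arc, Npas4 and Nr4a1, 10 of the 23955 genes in a count table of mouse hypothalamus. They were chosen by name, and all 10 had counts in every library. Messenger RNA was sequenced from 40 strains under basal conditions with no treatment and at 1 time point: 36 BXD lines, the inbred strains C57BL/6J and DBA/2J from which the lines descend, and the reciprocal F1 hybrids B6D2F1 and D2B6F1, which the labels also call parental strains. BXD lines are recombinant inbred mice, each homozygous for its own mixture of C57BL/6J and DBA/2J chromosome segments. Each strain gave 1 library, and each BXD library was made from RNA pooled from 3 to 6 hypothalami, so the spread over lines joins genotype, the animals pooled, dissection and library preparation. The age, sex and hour of sampling of the mice are not given in the sources used here, nor whether animals of a pool were killed together.

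Immediate early genes are transcribed within minutes of a stimulus, without new protein synthesis, because the factors that switch them on are already present and need only be phosphorylated. In neurons the usual route runs from calcium and MAP kinases to CREB, which binds cyclic AMP response elements, and to serum response factor, which binds CArG boxes. In the hypothalamus, Fos is the standard marker of neurons engaged by fasting, stress, osmotic challenge or light, and the messages last only a short time after the stimulus. In whole-tissue RNA, fewer cells with a message and less message per cell cannot be told apart.

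The start sites themselves are shown as a description, and any relation to how the members varied over the lines was not tested. Of the 10 members, 7 have an entry in the RefSeq promoter table for GRCm38.p6, with 11 start sites among them; Egr1, Egr3 and Arc have none. These coordinates are of that build, not of mm9, which the submitters' processing notes name for the alignment. The runs below are given from 5′ to 3′ on the gene's strand: the 250 bases upstream of the start site for 5 members, and for Egr2 the 22 bases that join its CArG box to a neighbouring CGTCA. Capitals in the longer runs mark CGTCA or its reverse complement TGACG, the core of the cyclic AMP response element.
Fos, chr12:85473640-85473889, plus strand: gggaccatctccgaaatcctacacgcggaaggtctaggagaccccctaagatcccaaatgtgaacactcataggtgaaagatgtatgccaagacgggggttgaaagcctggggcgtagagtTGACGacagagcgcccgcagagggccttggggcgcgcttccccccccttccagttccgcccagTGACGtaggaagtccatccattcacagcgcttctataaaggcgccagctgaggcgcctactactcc
Fosb, chr7:19310046-19310295, minus strand: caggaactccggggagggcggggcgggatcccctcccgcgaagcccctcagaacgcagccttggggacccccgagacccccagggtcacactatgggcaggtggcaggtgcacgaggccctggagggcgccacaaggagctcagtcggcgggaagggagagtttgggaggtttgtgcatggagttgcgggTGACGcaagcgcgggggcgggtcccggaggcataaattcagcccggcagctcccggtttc
Junb, chr8:84978749-84978998, minus strand: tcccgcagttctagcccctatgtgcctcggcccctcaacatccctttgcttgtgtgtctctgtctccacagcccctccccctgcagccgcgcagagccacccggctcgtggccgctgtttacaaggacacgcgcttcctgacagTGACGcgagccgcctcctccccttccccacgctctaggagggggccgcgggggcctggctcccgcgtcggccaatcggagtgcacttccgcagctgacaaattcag
Npas4, chr19:4989972-4990221, minus strand: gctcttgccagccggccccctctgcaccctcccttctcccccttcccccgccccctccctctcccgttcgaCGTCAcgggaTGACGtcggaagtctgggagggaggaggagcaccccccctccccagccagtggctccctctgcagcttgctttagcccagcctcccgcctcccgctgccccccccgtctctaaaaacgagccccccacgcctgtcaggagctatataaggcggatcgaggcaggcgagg
Nr4a1, chr15:101266596-101266845, plus strand: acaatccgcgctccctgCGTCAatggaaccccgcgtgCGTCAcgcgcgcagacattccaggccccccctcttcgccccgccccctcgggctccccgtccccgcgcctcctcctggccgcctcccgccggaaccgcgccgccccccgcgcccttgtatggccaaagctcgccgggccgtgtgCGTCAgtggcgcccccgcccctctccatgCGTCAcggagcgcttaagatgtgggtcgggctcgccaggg
Egr2, chr10:67537797-67537818, plus strand, with a CArG box and CGTCA in capitals: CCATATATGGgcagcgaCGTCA

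CGTCA was found on either strand in 9 of the 11 member windows, at least 1 for each of the 7 members, against 17.8% of 32851 mouse promoters of the same length. Several of the 11 windows belong to Egr2, and some of those overlap and hold the same copies, so the 11 are not independent. Member windows had a GC content of at least 54%, and among the 14726 promoters at or above that content 25.4% held the motif. Nr4a1 held 4 copies, Npas4 and Fos 2 each, and Fosb and Junb 1 each; the copies in Fos began 129 and 66 bases before the start site, and the copy in Fosb 60 bases before it. The full palindrome TGACGTCA was in none of the member windows and in 1.55% of all promoters. The CArG box, searched as CC, 6 bases of A or T and GG, was found at Egr2 alone among the 7 and in 1.47% of all promoters. Only the 250 bases upstream of each start site were searched. A CArG box farther upstream would be missed, so its absence here does not mean that a member lacks one. Egr1, Egr3 and Arc were not searched. GCGGGGGCG, a sequence that EGR proteins bind, was found at Fosb and Nr4a1 and in 2.57% of all promoters. TGANTCA, with any base at N, includes the AP-1 site but is wider than it. This pattern was in no member window and in 6.75% of all promoters. A match of letters is a description of the window and not a measured binding site.

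The 40 libraries held 12.2 to 40.4 M counts each, 23.6 M at the median. Values below are CPM, the count of a gene divided by the library total in M and scaled by TMM, a factor that evens out library composition. All 20 hypothalamic marker genes, among them Pomc, Agrp, Hcrt, Avp and Oxt, were detected, and their summed level over the lines ran from 496 to 1103 CPM. A second list of 14 striatal and septal markers, tissue at the rostral edge of a hypothalamic block, summed to 265 to 1240 CPM with a median of 348; BXD90 stood highest at 1240, followed by BXD45 at 626 and BXD56 at 534. Pituitary Gh and Prl were at 0 in some libraries but reached 24.5 and 5.14 CPM in others. Summed pituitary markers had a median of 20.8 CPM over the lines and a highest value of 60.1 in BXD85. Summed choroid plexus markers had a median of 113 CPM and a highest value of 994 in BXD32. Libraries also differed in how strongly the count of a gene depended on its GC content. This GC tilt, the slope of log2 CPM relative to the mean of the lines on 10 percentage points of transcript GC, ran from -0.32 in BXD43, -0.30 in BXD32 and -0.23 in BXD63 to 0.17, and it had a correlation of 0.97 over the lines with the leading principal component of all genes, which held 18.5% of the variance. The sums and the tilt are given beside the results they moved with.

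The AP-1 members encode subunits of a dimeric transcription factor: FOS and FOSB pair with JUN proteins, and JUNB is 1 of these. Fos had 38.4 ± 9.02 CPM (SD, n = 36 lines), from 22.5 in BXD55 through a median of 38.1 to 59.6 in BXD44. Fosb had 5.78 ± 1.88 CPM, from 2.74 in BXD55 through 5.57 to 11.2 in BXD45. Junb had 18.5 ± 5.57 CPM, from 9.68 in BXD63 through 19.4 to 30.3 in BXD90. The extremes were thus in different lines for Junb than for its partners. C57BL/6J gave 27.3 CPM for Fos, below 33 of the 36 lines, and DBA/2J gave 53.1, with 2 lines above it.

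The EGR members are zinc finger transcription factors that bind GC-rich elements. Egr1 was the most abundant member at 83.4 ± 21.4 CPM, from 51.0 in BXD55 through 80.1 to 139 in BXD45. Egr2 had 1.61 ± 0.760 CPM, from 0.580 in BXD55 through 1.46 to 4.02 in BXD45; its lowest line rested on 7 reads. Egr3 had 3.68 ± 2.00 CPM, from 1.33 in BXD55 through 3.02 to 12.9 in BXD90, where the next highest line, BXD45, had 6.65. Egr4 had 2.37 ± 1.25 CPM, from 0.869 in BXD49 through 2.09 to 7.08 in BXD90, with BXD51 next at 5.03. For Egr3 and Egr4, 1 line therefore stood well above the other 35, and it was the line with the highest striatal sum.

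Arc encodes a postsynaptic protein that governs AMPA receptor removal, Npas4 a transcription factor induced by calcium entry in neurons, and Nr4a1 an orphan nuclear receptor. Arc had 28.7 ± 6.94 CPM, from 19.2 in BXD61 through 27.5 to 46.5 in BXD90. Npas4 had 21.6 ± 3.92 CPM, from 15.4 in BXD49 through 21.5 to 29.9 in BXD64. Nr4a1 had 26.5 ± 5.97 CPM, from 16.9 in BXD55 through 25.6 to 42.3 in BXD90. Npas4 had the smallest ratio of highest to lowest line among the 10, 1.94-fold, and Egr3 the largest, 9.72-fold.

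Levels between genes can be compared per kilobase of transcript. On that scale Egr1 had 18.6 ± 4.78 and Fos 18.2 ± 4.28 CPM per kb, which did not differ beyond their spread. Nr4a1 followed at 10.4 ± 2.34, Junb at 10.2 ± 3.08 and Arc at 9.40 ± 2.27, again within their spread of each other, and then Npas4 at 5.97 ± 1.08. Fosb at 1.53 ± 0.496, Egr4 at 1.10 ± 0.580, Egr3 at 0.934 ± 0.507 and Egr2 at 0.544 ± 0.256 CPM per kb formed the low end, each overlapping its neighbour. These overlaps are of SDs over lines. The members share libraries and no paired test was run, so an overlap does not show that 2 mean levels are equal.

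The spread of log2 CPM over the lines was 0.26 for Npas4, 0.34 for Fos, 0.37 for Egr1, 0.47 for Junb, 0.60 for Egr3 and 0.64 for Egr4. Counting alone would give 0.034 for Egr1, the deepest member, and 0.27 for Egr2, the shallowest, whose measured spread was 0.60. Among 14996 genes ranked by edgeR's dispersion, the variability that counting does not account for, the members lay between the 82.9th percentile for Npas4 and the 98.4th for Egr4, with Fos at the 91.2nd. No member showed a step of 1 log2 unit or more with at least 6 lines on each side, a check that does not see a single outlying line such as BXD90 for Egr3.

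**Figure D1:**
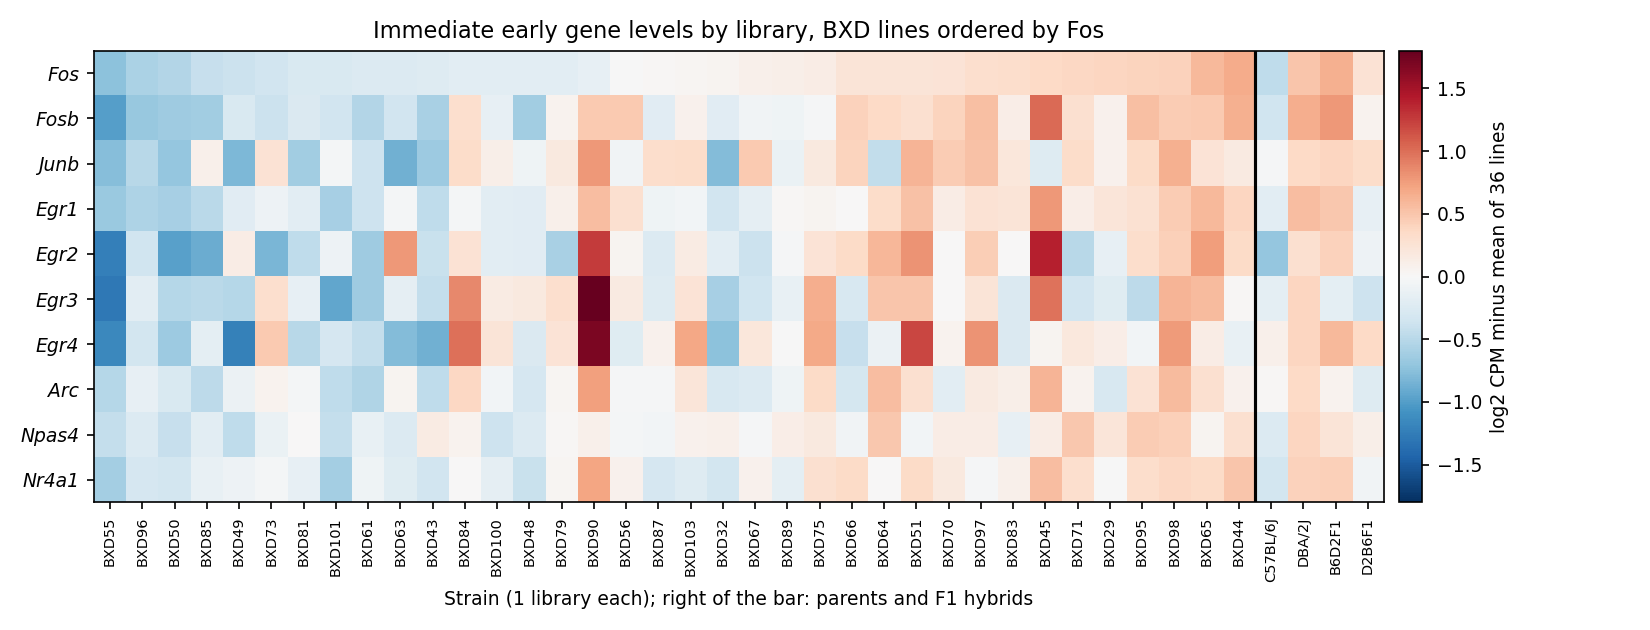
Each column is 1 library and each row 1 member; colour gives log2 CPM minus the mean of the 36 BXD lines, which are ordered by Fos from 22.5 CPM in BXD55 to 59.6 CPM in BXD44, with parents and F1 hybrids right of the bar. BXD55 is low for all members, and BXD90 is high for Egr3 and Egr4 while its Fos lies near the middle.

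The same lines recurred at the extremes. BXD55 was among the 6 lowest lines for all 10 members, BXD50 for 9 and BXD43 for 6. BXD55 also had the lowest library total, 12.2 M counts, and BXD43 the lowest GC tilt; their part in these ranks was not tested. At the other end BXD98 was among the 6 highest for 8 members, BXD90 for 7 and BXD45 for 6. In BXD90 the members did not move as a block: it ranked highest for Junb, Egr3, Egr4, Arc and Nr4a1, but its Fos, at 33.8 CPM, ranked 21st and its Npas4, at 22.6 CPM, 14th. BXD98 was more even, with Fos at 49.9, Egr1 at 111, Arc at 41.7 and Npas4 at 28.8 CPM.

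Whether other genes followed Fos was asked by fitting every gene's counts on the log2 CPM of Fos over the 36 lines with edgeR's quasi-likelihood test; a slope of 1 means that the gene doubled where Fos doubled, and p-values were adjusted by Benjamini-Hochberg over all genes tested. Of 15940 genes, 7 passed an adjusted p of 0.05, which is 0.0439%, and all 7 were higher where Fos was higher. All 9 other members were tested, and 4 of the 7 genes were members. Fosb had a slope of 1.14 ± 0.14 (SE; edgeR adjusted p = 2.0e-06), Egr1 0.86 ± 0.11 (edgeR adjusted p = 1.0e-05), Npas4 0.57 ± 0.086 (edgeR adjusted p = 2.1e-04) and Nr4a1 0.63 ± 0.11 (edgeR adjusted p = 0.0068). A slope depends on which gene is the variable: fitted the other way, Fos had a slope of 0.62 ± 0.068 on Fosb and of 0.98 ± 0.15 on Npas4. The 3 others were Dusp1, a phosphatase that switches off MAP kinases, with a slope of 0.51 ± 0.056 (edgeR adjusted p = 4.4e-07), Btg2, an antiproliferative gene with immediate early kinetics, with 0.52 ± 0.066 (edgeR adjusted p = 8.2e-06), and Klf2, a zinc finger factor prominent in endothelium, with 0.69 ± 0.14 (edgeR adjusted p = 0.036).

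Dusp1 and Btg2 stayed past the threshold whichever line was left out. Nr4a1 missed it without BXD55, with an adjusted p of 0.051, and without the 2 lines farthest from the median of Fos, with 0.20. Klf2 missed it when any 1 of 17 lines was left out, with an adjusted p of up to 0.19 (BXD45, BXD49, BXD50, BXD51, BXD55, BXD61, BXD63, BXD66, BXD70, BXD71, BXD81, BXD83, BXD84, BXD85, BXD95, BXD97 or BXD98). Among 19 alternative settings, DESeq2 in place of edgeR being 1 of them, Klf2 missed the threshold in 6, with an adjusted p of up to 0.30.

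The remaining members had positive slopes on Fos that did not pass: Egr2 1.01 ± 0.27 (edgeR adjusted p = 0.48), Junb 0.71 ± 0.20 (0.62), Arc 0.48 ± 0.15 (0.95), Egr4 0.60 ± 0.34 (1.0) and Egr3 0.47 ± 0.32 (1.0). With the log2 striatal sum as a covariate, Egr2 had an edgeR adjusted p of 0.0072 and Arc of 0.0074, so that 6 members passed among 11 genes. With both the striatal sum and GC tilt as covariates Junb passed as well, at an edgeR adjusted p of 0.0050, and 7 members were among 12 genes; Egr3 (0.15) and Egr4 (0.75) did not pass. Fos itself had a correlation of -0.06 with the striatal sum and of 0.11 with GC tilt over the lines.

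**Figure D2:**
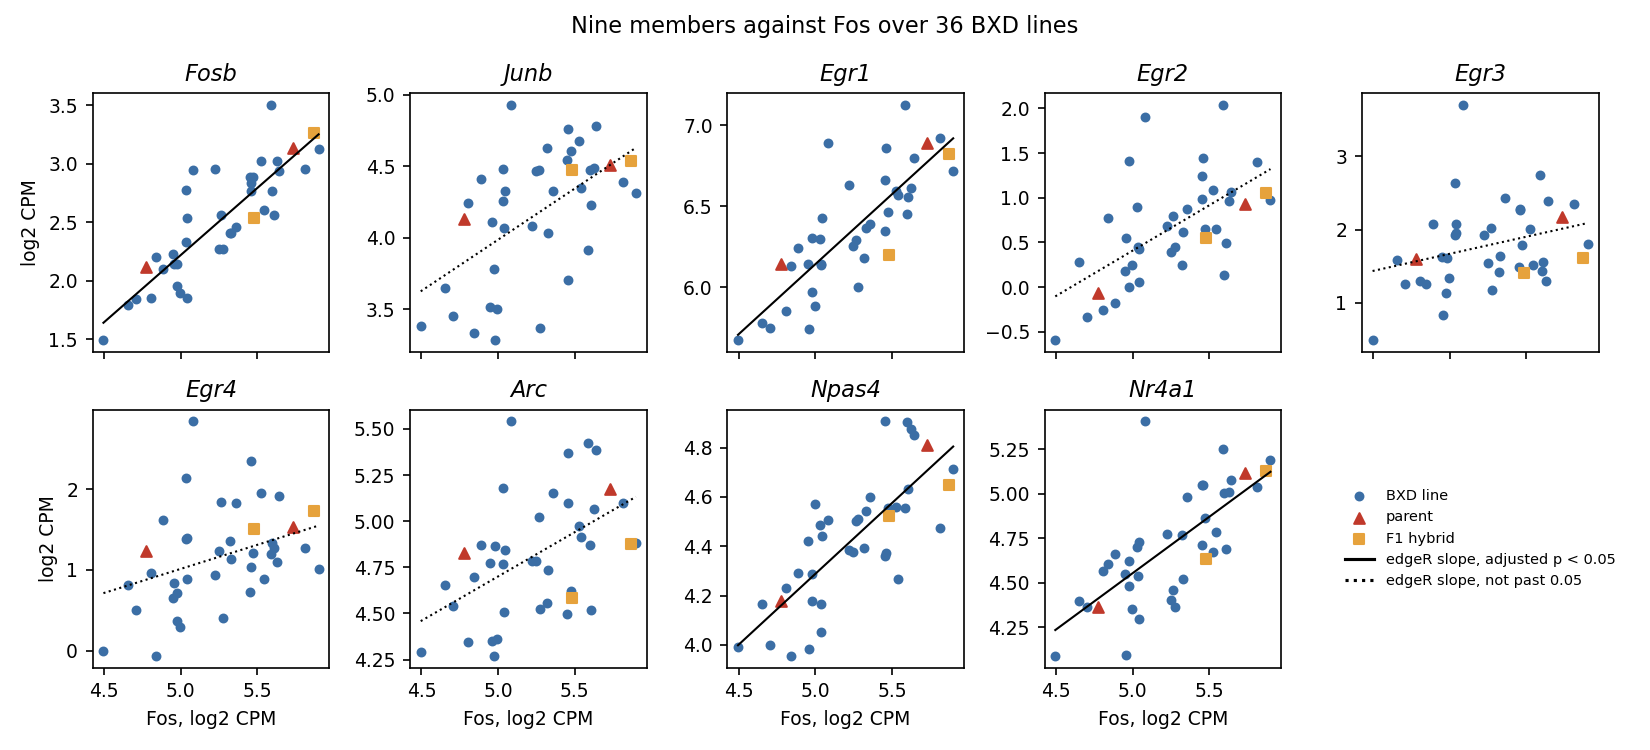
Each panel plots log2 CPM of 1 member against log2 CPM of Fos; circles are the 36 BXD lines, triangles the parents and squares the F1 hybrids, and lines are edgeR slopes over the BXD lines, solid where the adjusted p was below 0.05. Fosb, Egr1, Npas4 and Nr4a1 have solid lines; in the Junb, Egr3, Egr4, Arc and Nr4a1 panels the highest point is BXD90, at a middling Fos.

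The wider immediate early response was described through lists of genes, by the share with a positive slope on Fos; over all genes that share was 50.5% and the median slope 0.00063. Of 17 other immediate early transcription factors tested (Jun, Fosl2, Nr4a3, Ier2 and others), 16 had positive slopes with a median of 0.19, and Klf2 passed. Fosl2, an AP-1 subunit, had 0.50 ± 0.12 (edgeR adjusted p = 0.27), and Nr4a3, a nuclear receptor related to Nr4a1, 0.62 ± 0.14 (0.18). Of 26 feedback regulators and effectors, 24 were positive with a median of 0.21, and Dusp1 and Btg2 passed. Delayed and synaptic activity-regulated genes such as Bdnf and Homer1 had 16 of 19 positive slopes with a median of 0.058 and none passed. Upstream kinases and transcription factors, whose control is largely by phosphorylation, had 18 of 27 positive with a median of 0.011 and none passed.

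Stress-related lists were also examined. All 17 glucocorticoid response genes tested had positive slopes on Fos with a median of 0.13, among them Sgk1 at 0.31 ± 0.12 (edgeR adjusted p = 1.0), and none passed. For heat shock genes 10 of 12 were positive with a median of 0.10, and for clock genes 9 of 12 with a median of 0.021; none of either list passed. Genes within a list share libraries and are not independent of each other, so these counts are descriptions. Markers of meninges had 12 of 14 positive slopes with a median of 0.33, thalamic markers 12 of 12 with 0.15, striatal markers 3 of 14 with -0.12, microglial markers 1 of 12 with -0.12 and oligodendrocyte markers 1 of 12 with -0.087, and none of these passed.

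Between members, all 45 pairwise correlations of log2 CPM over the 36 lines were positive, with Pearson's r from 0.33 to 0.90 and a median of 0.63. By a two-sided permutation test with Benjamini-Hochberg adjustment over the 45 pairs, 44 passed 0.05 by Pearson's r and 45 by Spearman's rho. The share of pairs of other genes that would pass was not computed, so these counts have no background beside them. The members are read from the same 36 libraries and share their depth and dissection. The r values after removing the striatal sum and GC tilt together ran from 0.33 to 0.93 with a median of 0.62. The highest was Fosb with Egr1 (r = 0.90, rho = 0.90, each permutation p = 1e-05, the smallest the test can give, adjusted 2.5e-05 and 3e-05; r = 0.87 without the 2 lines farthest from the median of Fosb). Egr1 with Nr4a1 had r = 0.85 and rho = 0.85, Egr3 with Arc 0.84 and 0.80, Junb with Egr4 0.84 and 0.81, and Fos with Fosb 0.83 and 0.83, all at the same p.

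By Pearson's r the weakest pairs joined Junb to Egr2 and Fos to Egr3 and Egr4, followed by Egr2 and Egr3 with Npas4 (0.39 each). By rho, Junb with Npas4 (0.36) and Egr2 with Egr4 (0.37) also lay below Fos with Egr3. Junb with Egr2 had r = 0.33 (permutation p = 0.052, adjusted 0.052) and rho = 0.35 (permutation p = 0.036, adjusted 0.036), and dropping the 2 lines with the most extreme Junb gave r = 0.47. Fos with Egr3 had r = 0.33 (permutation p = 0.045, adjusted 0.046) and rho = 0.38 (permutation p = 0.024, adjusted 0.026), and r fell to 0.25 without the 2 farthest lines. After the striatal sum was removed from both genes, Fos with Egr3 had r = 0.61 and Fos with Egr1 0.93, against 0.80 before. Over the 45 pairs, r was higher after this removal in 16 and lower in 29: Egr2 with Egr4 went from 0.46 to 0.29, Egr4 with Nr4a1 from 0.57 to 0.44, Egr3 with Arc from 0.84 to 0.73 and Junb with Egr2 from 0.33 to 0.28. After GC tilt was removed, Junb with Egr2 had r = 0.54.

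**Figure D3:**
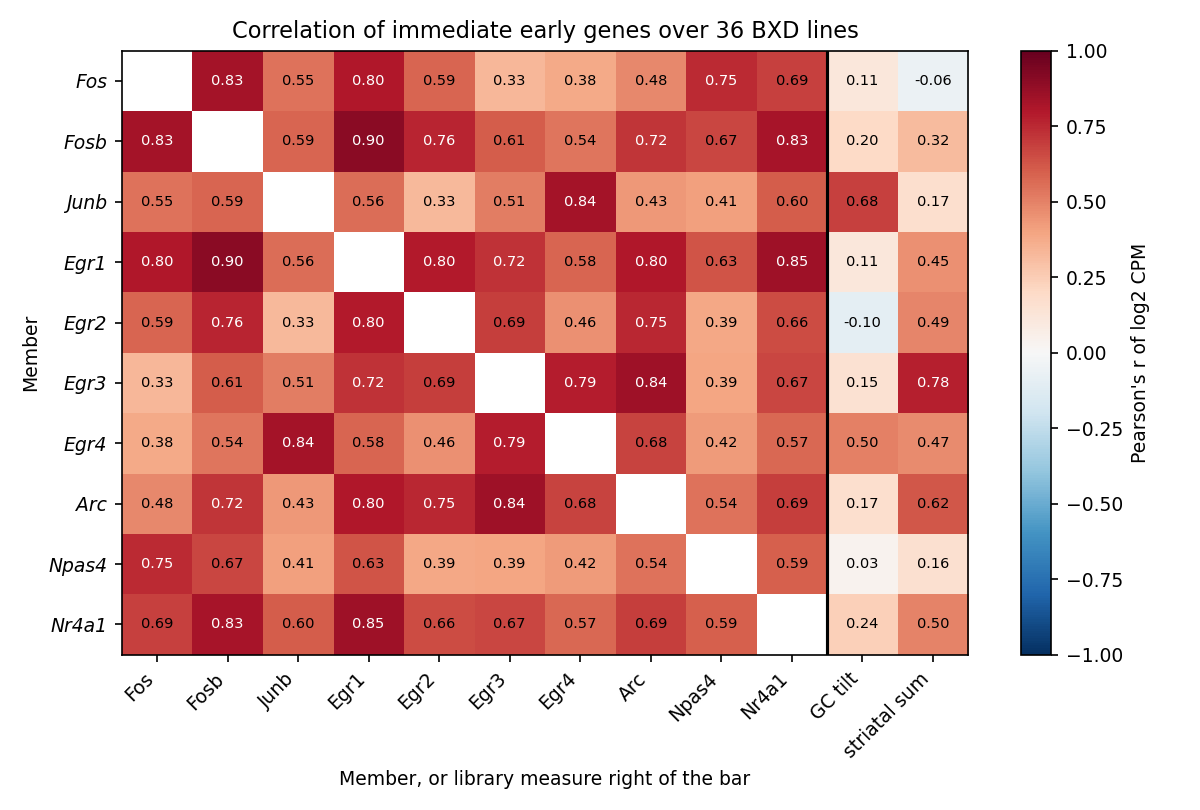
Cells give Pearson's r of log2 CPM over 36 BXD lines for each pair of members and, right of the bar, of each member with GC tilt and with the log2 summed CPM of 14 striatal markers. All member pairs are positive, from 0.33 to 0.90; Junb has the highest r with GC tilt (0.68) and Egr3 with the striatal sum (0.78).

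The members differed in which library measures they followed. Over 120 correlations of members with library measures, with Benjamini-Hochberg adjustment over the 120, 10 passed 0.05 by Pearson's r. Junb followed GC tilt (r = 0.68, permutation p = 1e-05, adjusted 0.0006; rho = 0.72, permutation p = 1e-05, adjusted 0.0012; r = 0.63 without the 2 farthest lines), as did Egr4 (r = 0.50, permutation p = 0.0021, adjusted 0.036; rho = 0.52, permutation p = 0.0014, adjusted 0.043; r = 0.41). Junb also followed the summed hypothalamic markers (r = 0.59, permutation p = 1e-04, adjusted 0.0030, and rho = 0.57, permutation p = 3.2e-04, adjusted 0.013, with r = 0.52 without the 2 farthest lines). In the fits described below, 10 of the 20 hypothalamic markers passed with Junb as the slope variable. All were higher, beside 14.8% of all genes that passed in that direction. With GC tilt as covariate only 19 of all genes passed with Junb, and the markers were not counted in that fit. Egr4 and Junb have the most GC-rich transcripts of the 10, 68.2% and 62.6%. Egr3 followed the striatal sum (r = 0.78, permutation p = 1e-05, adjusted 0.0006; rho = 0.63, permutation p = 1e-04, adjusted 0.0060; r = 0.59 without the 2 farthest lines), as did Arc (r = 0.62, permutation p = 2e-05, adjusted 0.0008; rho = 0.49, permutation p = 0.0027, adjusted 0.055; r = 0.46).

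Nr4a1, Egr2 and Egr1 had r of 0.50, 0.49 and 0.45 with the striatal sum by Pearson's r (permutation p = 0.0013, 0.0021 and 0.0037, adjusted 0.031, 0.036 and 0.047), but rho of 0.33, 0.28 and 0.33 (permutation p = 0.048, 0.10 and 0.045) with adjusted p of 0.32, 0.40 and 0.32. Without the 2 farthest lines their r was 0.21, 0.16 and 0.26, so these 3 relations rested on those lines. Fosb and Nr4a1 had r of 0.48 and 0.47 with the summed markers of meninges (permutation p = 0.0031 and 0.0039, adjusted 0.046 and 0.047), with rho of 0.43 and 0.50 (permutation p = 0.0085 and 0.0019, adjusted 0.13 and 0.046) and r of 0.37 and 0.44 without the 2 farthest lines; Fosb thus did not pass by rho. Npas4 had 0.03 with GC tilt and 0.16 with the striatal sum.

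Each member was then used as the slope variable in turn, with edgeR's quasi-likelihood test and adjustment over all genes. With Npas4, 2 genes passed (0.0126%), and both were members, Fos and Fosb. With Fosb, 23 genes passed (0.144%), 7 of them members, and with Egr1 41 (0.257%), 8 of them members. With Egr2, 69 passed (0.431%) with 6 members, and with Nr4a1 94 (0.587%) with all 9 other members, of which 6 passed without BXD90, 6 without BXD55 and 3 with the striatal sum as covariate. The background was higher for the other 4: 535 genes with Arc (3.36%), 562 with Egr3 (3.48%), 1653 with Egr4 (10.3%) and 4251 with Junb (26.8%), each with 7 of the 9 members. A member count in the Junb fit is therefore read against more than 1 gene in 4.

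In all 10 fits the slopes of the other members were positive, and 27 of the 45 pairs passed with either member as the slope variable. That count was 17 when the 2 lines farthest from the median of the slope variable were left out of each fit, and 20 without BXD90 or without BXD55. Single lines moved the number of genes: without BXD90, 6 genes passed with Egr2, 17 with Egr1, 20 with Nr4a1, 196 with Egr3 and 269 with Arc, but 4655 with Junb and 1970 with Egr4. Without BXD55, 22 passed with Egr1 and 54 with Nr4a1, and 1 with Npas4 under either omission.

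Covariates moved these counts. With GC tilt in the fit 19 genes passed with Junb in place of 4251, and 538 with Egr4 in place of 1653. With the striatal sum in the fit 4 genes passed with Egr3 in place of 562, 41 with Arc in place of 535, 9 with Nr4a1 in place of 94 and 4 with Egr2 in place of 69. The counts rose in other fits: GC tilt gave 1154 genes with Egr3 and 1160 with Arc, and the striatal sum 4673 with Junb and 2728 with Egr4. With both, 12 genes passed with Fos, 15 with Fosb, 16 with Egr1, 39 with Junb, 75 with Egr4 and 105 with Arc. Of these, 7 were members for Fos, 6 for Fosb, 8 for Egr1, 3 for Junb, 2 for Egr4 and 6 for Arc. In the remaining 4 fits with both covariates, members passing fell from 9 to 3 with Nr4a1 (5 genes in all), from 7 to 2 with Egr3 (4 genes), from 6 to 4 with Egr2 (5 genes) and from 2 to 1 with Npas4 (1 gene). Without the 3 lines of lowest GC tilt, 590 genes passed with Junb, 3 of them members, and 405 with Egr4, 4 of them members.

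**Figure D4:**
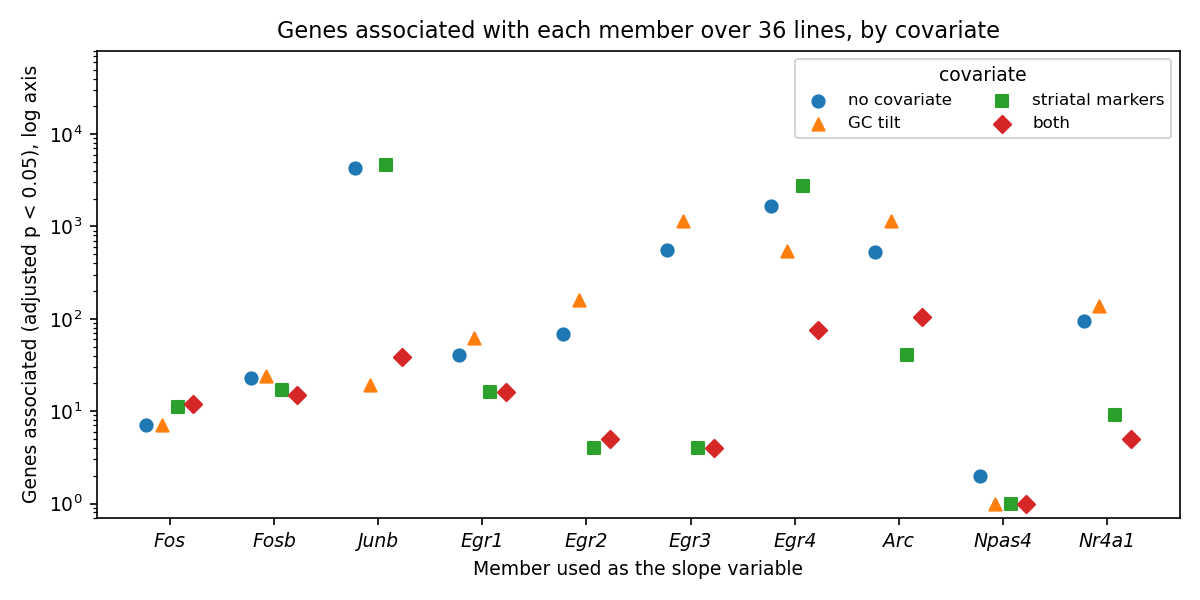
For each member as the slope variable, points give the number of genes with an edgeR adjusted p below 0.05 over 36 BXD lines on a log axis, with no covariate, with GC tilt, with striatal markers or with both. Junb falls from 4251 to 19 genes with GC tilt and Egr3 from 562 to 4 with striatal markers, while Fos goes from 7 to 12 with both.

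Beyond the members, genes of the immediate early lists passed with Fosb and Egr1 as well. With Fosb, 6 of the 26 feedback regulators and effectors and 3 of 17 other immediate early transcription factors passed, all higher. Of all genes, 0.137% passed in that direction. Examples were Fosl2 with a slope of 0.45 ± 0.077 (edgeR adjusted p = 0.0018), Nr4a3 with 0.53 ± 0.094 (0.0027) and Dusp6, a phosphatase specific for ERK, with 0.26 ± 0.047 (0.0029). With Egr1, 8 of 26 and 2 of 17 passed, all higher, beside 0.245% of all genes in that direction. Among them were Cyr61, a matricellular protein, with 0.65 ± 0.11 (edgeR adjusted p = 8.3e-04), and Nab2, a corepressor that binds EGR proteins, with 0.43 ± 0.094 (0.033).

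With Arc, 9 of 26 feedback regulators passed, Nab2 at 0.50 ± 0.098 (edgeR adjusted p = 0.0014) and Dusp5 at 0.82 ± 0.17 (0.0030) among them, but so did 12 of the 14 striatal markers, all higher, beside 2.3% of all genes that passed in that direction. The calcium and calmodulin dependent kinase Camk2a had a slope on Arc of 0.43 ± 0.056 (edgeR adjusted p = 4.9e-06) and the scaffold Homer1 of 0.38 ± 0.097 (0.017). With Egr3, 13 of the 14 striatal markers passed, all higher, beside 2.56% of all genes, and with Egr4 11, all higher, beside 6.39%. Of the same 14 markers, 6 passed with Nr4a1 beside 0.575% of all genes in that direction, and 5 with Egr2 beside 0.412%. With Junb 5 passed beside 14.8%, and with Egr1 1 beside 0.245%, all again higher. None passed with Fos, Fosb or Npas4, and the differences between these fits were not tested. With Junb, 13 of 26 feedback regulators and 7 of 17 other immediate early transcription factors passed, all higher, beside 14.8% of all genes that passed in that direction. With GC tilt as covariate only 19 genes passed with Junb in all, 4 of them members. Most of these list genes therefore did not pass in that fit.

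Outside the 10 members, the genes with the most similar profile over the 36 lines were sought among 14477 genes with a mean of at least 1 CPM. Dusp1 was the nearest gene to Fos (r = 0.86), Fosb (0.80), Egr1 (0.74) and Npas4 (0.64), and Btg2 was the next for Fos (0.81), Fosb (0.74) and Npas4 (0.64). Dusp1 had 19.9 ± 2.77 CPM, from 13.95 through 20.01 to 26.7, and Btg2 had 21.8 ± 3.32 CPM, from 15.8 through 22.2 to 27.96, so both varied less than Fos. Nr4a1 was nearest to Cyr61 (0.72), Btg2 (0.72) and Sec14l1 (0.71), and Egr2 to Apold1 (0.70), Fam212b (0.67) and Slc17a7 (0.66), a vesicular glutamate transporter of cortical neurons.

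The other members had different neighbours. Egr3 was nearest to 2010300C02Rik (0.86), Lmo7 (0.86) and Chrm1 (0.85), a muscarinic receptor. Arc was nearest to Prmt8 (0.82), Wipf3 (0.80) and Sec14l1 (0.79). Junb was nearest to Gm13889 (0.86), Mypop (0.84) and Irf2bpl (0.83), and Egr4 to Dlgap3 (0.84), Lhx2 (0.84) and Icam5 (0.82). The third gene for Fos was Reep4 (0.66), for Fosb Klf2 (0.71), for Egr1 Dnajb5 (0.72) after Cyr61 (0.72), and for Npas4 Wdr13 (0.57).

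The parents were compared without a test, since each is 1 library. All 10 members were lower in C57BL/6J than in DBA/2J. Fos was 27.3 against 53.1 CPM, a log2 difference of -0.96 with a counting error of 0.067; the spread of Fos over the lines was 0.34. Fosb was 4.25 against 8.70 CPM (log2 -1.02), Egr2 0.875 against 1.82 (-0.99), Nr4a1 20.5 against 34.6 (-0.75) and Egr1 70.7 against 119 (-0.75). Npas4 was 18.01 against 27.99 CPM (-0.63) and Egr3 2.94 against 4.41 (-0.57). The smallest differences were in Junb, 17.4 against 22.6 CPM (-0.38), Arc, 28.3 against 36.0 (-0.35), and Egr4, 2.27 against 2.81 (-0.30), the last with a counting error of 0.25. GC tilt was 0.049 in C57BL/6J and 0.057 in DBA/2J, and the striatal sum 423 and 374 CPM. The members are correlated, so 10 in the same direction are not 10 independent observations.

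The reciprocal F1 hybrids carry the same autosomal genotype, both alleles at every locus where the parents differ, and are told apart by which strain was the dam. All 10 members were higher in B6D2F1 than in D2B6F1, but Junb, Egr3 and Egr4 by no more than about their counting error. Egr3 differed by 0.20 on the log2 scale with a counting error of 0.23, and Egr4 by 0.22 with 0.22. Fos was 58.4 against 44.6 CPM (log2 0.39 with a counting error of 0.053), Fosb 9.52 against 5.73 (0.73), Egr1 113 against 73.3 (0.62), Nr4a1 34.9 against 24.7 (0.50), Npas4 24.96 against 22.9 (0.12) and Junb 23.1 against 22.2 (0.059, counting error 0.079). For Fosb and Egr1 this gap between libraries of equal autosomal genotype was 0.73 and 0.62, beside 1.02 and 0.75 in size between the parents. In the other members the gap between hybrids was 0.39 for Fos, 0.50 for Nr4a1, 0.50 for Egr2 and 0.29 for Arc. It was 0.22 for Egr4, 0.20 for Egr3, 0.12 for Npas4 and 0.059 for Junb. C57BL/6J minus DBA/2J was -0.96, -0.75, -0.99, -0.35, -0.30, -0.57, -0.63 and -0.38 in the same order. GC tilt was 0.0029 in B6D2F1 and 0.021 in D2B6F1, and the striatal sum 343 and 298 CPM.

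The 2 F1 libraries were tested against the 38 inbred strains with edgeR's quasi-likelihood test: 0 of 16445 genes passed an adjusted p of 0.05 (0%), with 108 at an unadjusted p below 0.05, and DESeq2 also gave 0, with 100. Among the members, Fos had the smallest p, 0.078 by the edgeR fit (adjusted 1.0), at a log2 difference of 0.42 ± 0.23. The 36 BXD lines against the 4 other libraries likewise gave 0 of 16204 genes (0%), with 160 at an unadjusted p below 0.05 by edgeR and 156 by DESeq2, where the count of adjusted calls was 0. In that comparison Fos was -0.26 ± 0.17 on the log2 scale (edgeR p = 0.15, adjusted 1.0). Neither test showed a difference in any member, and with 2 or 4 libraries on the smaller side the standard errors of the members were 0.18 to 0.45 and 0.13 to 0.32.

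**Figure D5:**
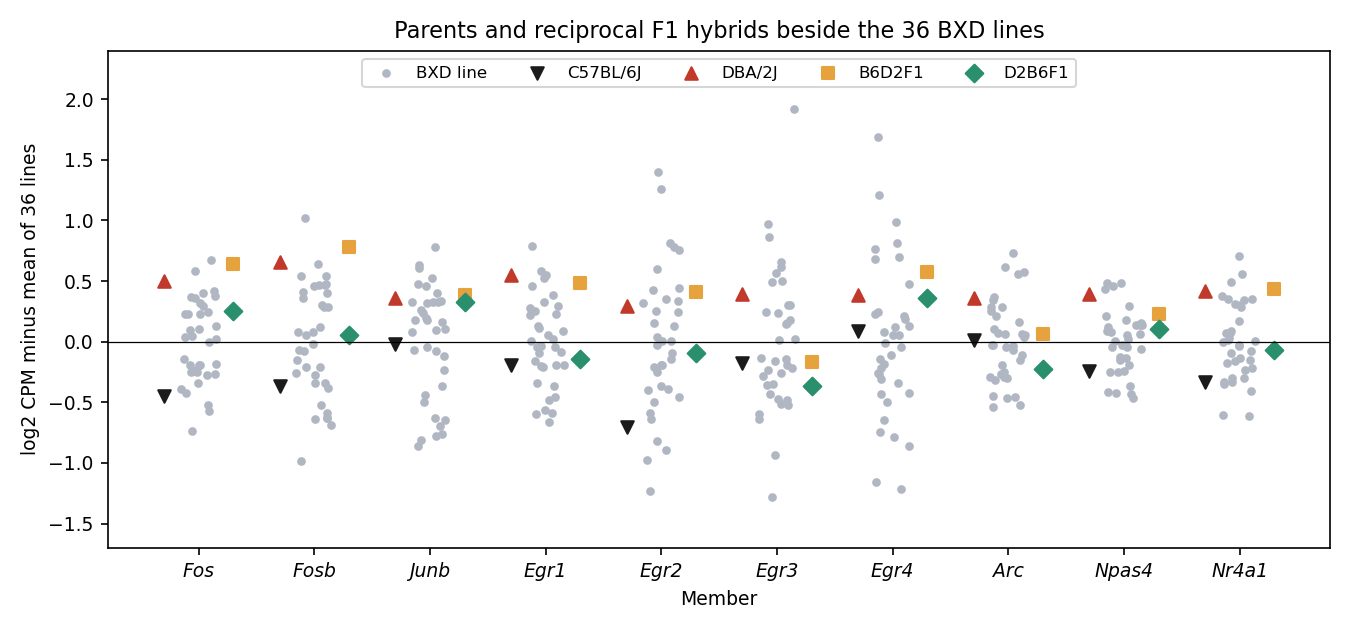
Grey points are the 36 BXD lines and coloured symbols the single libraries of C57BL/6J, DBA/2J, B6D2F1 and D2B6F1; the axis is log2 CPM minus the mean of the lines. C57BL/6J lies below DBA/2J and D2B6F1 below B6D2F1 for all 10 members, with gaps from 0.30 to 1.02 between parents and from 0.059 to 0.73 between hybrids.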

How the data were processed

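The deposited raw table holds read counts per gene for 40 libraries made with a stranded mRNA kit and sequenced as 100-base single-end reads at a stated 40 M reads, per the labels' protocols. The submitters' processing notes name TopHat2 2.0.8, HTSeq 0.5.4p3, DESeq and mm9, with no settings given; whether the counting used strand is not given in the sources used here. A second deposited table holds a normalized signal, counts divided by a size factor per library for 15251 genes, and 100% of its values came out as whole reads within 0.01; it served as an alternative, in which 7 genes passed with Fos.

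Counts were analysed with edgeR 4.0.16 (R 4.3.3): TMM, filterByExpr with a minimum count of 10, robust quasi-likelihood fits, Benjamini-Hochberg adjustment and a threshold of 0.05. DESeq2 1.42.0 was an alternative. Log2 CPM used a prior count of 2. Correlations used 100000 permutations (scipy 1.17.1). GC tilt was fitted over 11458 genes with a mean of at least 5 CPM. Transcript lengths and GC came from GENCODE vM21, and 95.4% of those genes matched by name. The fits were tested on simulated counts.

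The 10 members and the gene lists were chosen with earlier results of these data known. Named genes were the members, the genes passing with Fos, listed genes that passed, and the 3 nearest genes to each member. All 265 list entries were found. Strains were grouped by their labels, and each is 1 library, so p-values measure the spread between strains.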

Additional observations from a re-analysis of the deposited data

How the results depend on the processing

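No paired analysis was possible because replicate numbers here follow accession order and link no libraries across groups. With Fos as the slope variable 7 genes passed, against 15 with no filter on low counts, 11 with the striatal sum as covariate and 12 with the striatal sum and GC tilt; 7 passed with DESeq2 and with DESeq size factors. Leaving out each line in turn gave 5 to 8 genes and 3 to 4 members, the lowest of both without BXD55. Other members passing numbered 4, against 7 with both covariates. The 27 pairs of members became 17 without the 2 lines farthest from the median of the slope variable. The median number of genes passing over the 10 slope variables was 81.5, against 14.5 without those 2 lines, 13.5 with the striatal sum, 13.5 with both covariates and 20.5 without BXD90. The causes were not tested. GC tilt, its combinations and the omission of BXD90, BXD55 or the 3 lines of lowest tilt were chosen after seeing the data.

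In F1 hybrids against inbred strains 1 gene passed without D2B6F1, against 0. Leaving out 1 of the F1 libraries turned the sign of 5 log2 differences: they were -0.0235 to 0.71 for Fosb, -0.20 to 0.43 for Egr1, -0.21 to 0.31 for Egr2 and -0.10 to 0.40 for Nr4a1, the lower value without B6D2F1 and the higher without D2B6F1, and -0.27 to 0.018 for Arc in the same order. In the lines against the other 4 libraries leaving out 1 of the 4 gave -0.097 (without C57BL/6J) to 0.24 (without B6D2F1) for Egr2 and -0.12 (without D2B6F1) to 0.084 (without DBA/2J) for Arc; no member passed in any of these fits. Of 45 correlations, 42 to 45 passed under the alternatives. Depth limits Egr2 and Egr4 most, whose lowest counts in a line were 7 and 11 reads.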
